A study of Mus musculus with 7 samples.

Results

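7 immune receptor genes were followed in microglia from brains with a mouse glioblastoma, as bulk RNA sequencing: Cd300a, Cd300lf, Cd300ld, Cd300lb, Pirb, Pilra and Lair1. They were taken by name, as rows of the deposited table whose first symbol was 1 of these, and all 7 had a row among 24537. The libraries came from C57BL/6 mice carrying the 005 glioma, with microglia sorted at day 35 as cells of intermediate CD45 that carry the fractalkine receptor CX3CR1. 3 libraries were from mice given anti-CTLA4 together with anti-CD4 to deplete CD4 T cells, 2 were labelled anti-CTLA4, an antibody to a checkpoint receptor of T cells, and 2 were from mice given control IgG. The labels do not say that libraries are separate animals, so p-values measure only the spread between libraries, which may be technical. Sex, age and pooling of animals are not given in the sources used here.

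CD300 receptors are immunoglobulin-like surface proteins of myeloid cells, and several bind lipids that dying cells expose, such as phosphatidylserine. CD300A and CD300LF carry long tails with tyrosine motifs (ITIMs) that recruit the phosphatases SHP-1 and SHP-2 and dampen activation. CD300LD and CD300LB are short-tailed partners that signal through adaptor proteins with activating motifs, so the set holds activating members beside inhibitory ones. PIRB, a receptor for MHC class I, PILRA, a receptor for sialylated glycoproteins, and LAIR1, a receptor for collagen and C1q, are inhibitory receptors with ITIMs.

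The depth that low values imply was 49900000 to 61900000 reads in genes a library, with 11348 to 12401 genes at 1 FPKM or more. FPKM are fragments scaled to transcript length and depth, so levels can be set side by side between genes. The deposited columns with anti-CTLA4 in their names end in the numbers 29 and 30, and the command line in the header assigns those numbers to knockouts of the interferon-gamma receptor. The sample descriptions give these 2 samples the numbers 10 and 11, and that command line names anti-CTLA4 libraries with the numbers 10, 11 and 31. The columns used are written as the libraries labelled anti-CTLA4, and every direction against them rests on the column names. Ifngr1, the ligand-binding chain of that receptor, stood at 204 and 271 FPKM in them, against 107 to 143 FPKM in the other 5 libraries. The microglia genes Cx3cr1 and Tmem119 were likewise highest in them, Tmem119 at 548 and 1001 FPKM against 243 to 505 FPKM. P2ry12, another microglia gene, was not: it stood at 476 and 1088 FPKM in them, against 147 to 585 FPKM in the other 5 libraries. Whether these libraries are knockouts was not tested. Replicate 1 of the CD4 depletion group stood apart: over 13028 tested genes it correlated with replicates 2 and 3 at r = 0.918 and 0.935, against 0.975 between those, as a description across genes. The Y-linked gene Ddx3y was at 4.88, 3.24 and 2.52 FPKM with CD4 depletion, 0.600 and 0.149 FPKM in the libraries labelled anti-CTLA4 and 1.21 and 0.576 FPKM in IgG, so sex and depletion cannot be told apart. Uty and Eif2s3y, also Y-linked, were likewise highest in all CD4 depletion libraries. Y-linked Kdm5d overlapped IgG, at 0.663 to 1.88 FPKM with CD4 depletion against 0.746 and 0.061 FPKM there.

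The start regions of the receptor genes are shown for the pair that passed the test below, Cd300a and Lair1, and for Cd300lf and Pirb, 2 of the 5 that were highest in 1 library. Each is the RefSeq window of 250 bases before to 50 after the gene start in build GRCm38.p6 (chr11:114889791-114890090, plus strand; chr7:4063155-4063454, minus strand; chr11:115133943-115134242, minus strand; chr7:3720333-3720632, minus strand), and each starts from the same base as the deposited row. Capitals mark GAGGAAG on either strand, the core bound by PU.1, the ETS factor of the macrophage lineage.
Cd300a: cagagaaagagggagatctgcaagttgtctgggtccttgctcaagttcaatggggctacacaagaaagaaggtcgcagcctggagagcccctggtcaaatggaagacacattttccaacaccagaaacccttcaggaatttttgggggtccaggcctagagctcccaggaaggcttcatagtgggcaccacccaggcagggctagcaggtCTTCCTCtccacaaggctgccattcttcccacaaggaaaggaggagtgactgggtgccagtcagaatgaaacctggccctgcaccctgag
Lair1: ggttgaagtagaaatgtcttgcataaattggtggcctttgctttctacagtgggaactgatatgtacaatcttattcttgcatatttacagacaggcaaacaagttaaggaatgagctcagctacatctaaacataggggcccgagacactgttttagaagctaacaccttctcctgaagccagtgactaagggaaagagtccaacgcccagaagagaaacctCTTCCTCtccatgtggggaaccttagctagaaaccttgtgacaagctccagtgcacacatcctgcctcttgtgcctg
Cd300lf: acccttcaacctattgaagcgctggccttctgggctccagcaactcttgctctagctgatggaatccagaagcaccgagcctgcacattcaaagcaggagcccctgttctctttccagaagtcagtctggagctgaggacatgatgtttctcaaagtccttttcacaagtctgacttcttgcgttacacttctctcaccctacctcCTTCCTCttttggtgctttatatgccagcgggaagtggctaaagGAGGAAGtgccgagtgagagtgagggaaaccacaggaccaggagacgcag
Pirb: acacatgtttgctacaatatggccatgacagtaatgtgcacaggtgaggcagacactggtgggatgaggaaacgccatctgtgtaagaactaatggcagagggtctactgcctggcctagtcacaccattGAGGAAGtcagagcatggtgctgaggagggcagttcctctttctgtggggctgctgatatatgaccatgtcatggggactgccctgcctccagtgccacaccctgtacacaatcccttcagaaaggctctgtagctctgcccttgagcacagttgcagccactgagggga

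The letters GAGGAAG were chosen after the sequences had been seen. In Cd300a the match began 40 bases before the start and in Lair1 27 bases before it, both on the reverse strand. Cd300lf held 1 match at 44 bases before the start and 1 at the start itself, Pirb 1 at 120 bases, Cd300ld 1 at 143 and Pilra 1 at 211. Cd300lb held none, and 13.6% of 32851 promoter windows of the same length held at least 1. The interferon-gamma motif TTCNNNGAA was found in 0 of the 7 windows, against 8.30% of all windows. The interferon-stimulated response element was found only in that of Pilra, without overlap with GAGGAAG, against 3.44% of all. These are matches of letters and not binding sites.

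Cd300a, the inhibitory receptor for phosphatidylserine and phosphatidylethanolamine (chromosome 11, 114890041 to 114904651, mm10), had its highest level in the libraries labelled anti-CTLA4. It stood at 7.28, 10.8 and 10.6 FPKM with CD4 depletion, at 25.0 and 26.1 FPKM in the libraries labelled anti-CTLA4, and at 10.8 and 9.001 FPKM in IgG. Both libraries labelled anti-CTLA4 lay above all 5 others, and the CD4 depletion and IgG libraries overlapped. Against the labelled anti-CTLA4 group, CD4 depletion had a mean 0.373 times as high, or -1.35 in log2 (SE 0.19, 95% interval -1.81 to -0.90, limma adjusted p = 0.012). The labelled anti-CTLA4 mean was 2.59 times that of IgG, or 1.29 in log2 (SE 0.21, interval 0.79 to 1.79, limma adjusted p = 0.00995). Fold changes are on the log2(FPKM + 1) scale, on which changes of low genes come out too small.

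Lair1, the collagen and C1q receptor (chromosome 7, 4007073 to 4063204), had the highest level of the 7 genes in each group's mean. It stood at 44.2, 51.4 and 52.3 FPKM with CD4 depletion, at 105 and 136 FPKM in the libraries labelled anti-CTLA4, and at 52.4 and 55.3 FPKM in IgG. Both libraries labelled anti-CTLA4 lay above all 5 others, and the CD4 depletion libraries lay just below both IgG libraries. Lair1 was lower with CD4 depletion than in that group by -1.26 on the log2 scale (SE 0.17, limma adjusted p = 0.011). In the labelled anti-CTLA4 group it was higher than in IgG by 1.13 (SE 0.18, limma adjusted p = 0.00994), 2.24 times the IgG mean. Between CD4 depletion and IgG, Lair1 differed by -0.13 (interval -0.52 to 0.26, limma adjusted p = 0.836) and Cd300a by -0.06 (interval -0.52 to 0.39, limma adjusted p = 0.940). The intervals leave room for a difference of up to about 0.52 in size on the log2 scale.

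**Figure D1:**
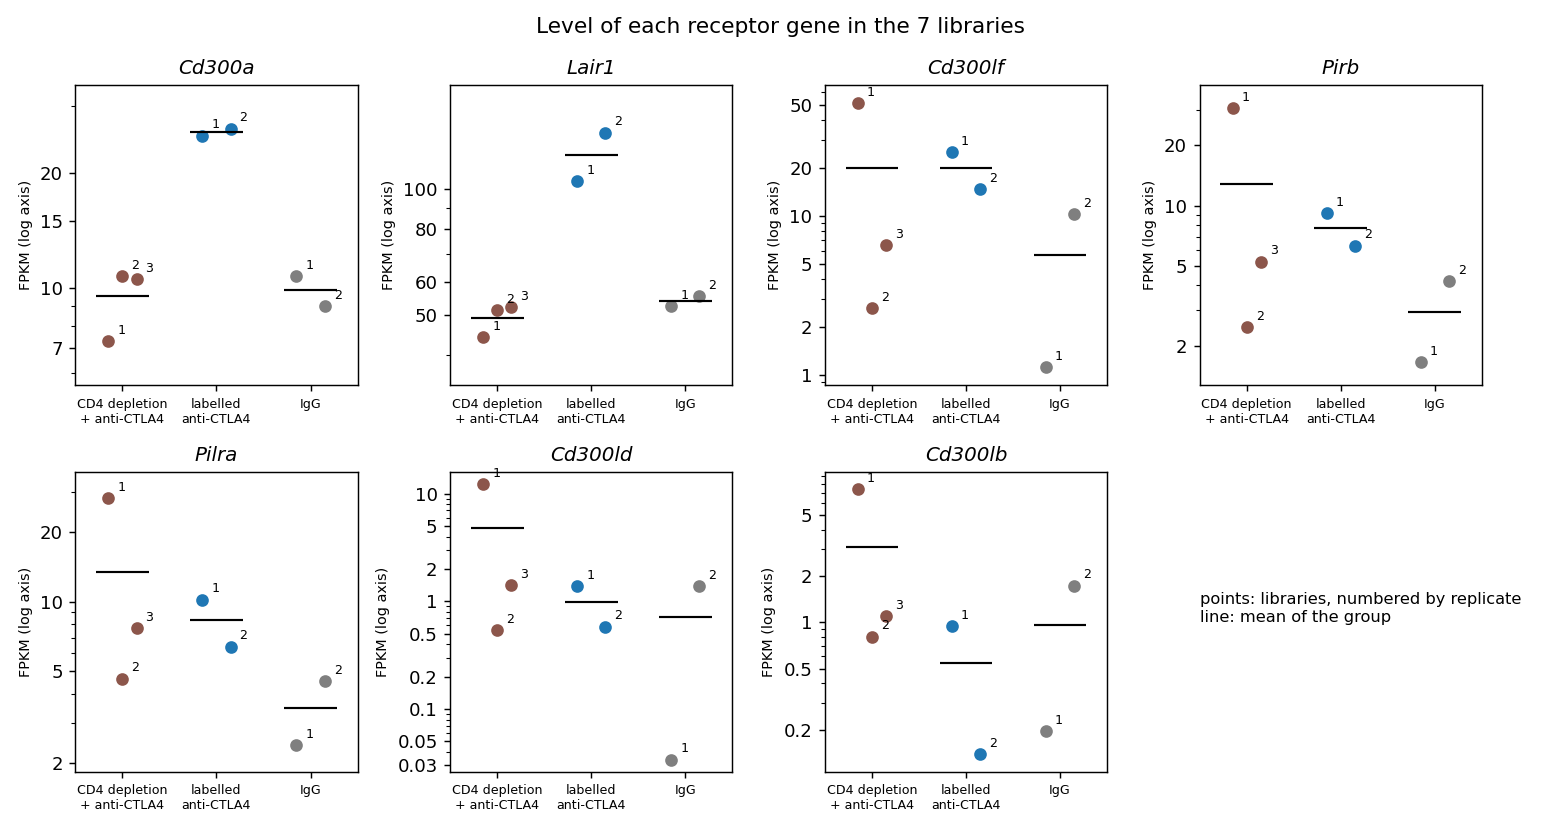
FPKM of the 7 receptor genes (vertical log axes) by group, with 1 point for each library and a line at the group mean. Cd300a and Lair1 are highest in both libraries labelled anti-CTLA4, while the other 5 genes are highest in replicate 1 of CD4 depletion, at 51.2 FPKM for Cd300lf.

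The other 5 genes shared another pattern: each was highest in replicate 1 of CD4 depletion, and none passed the test in any comparison. Cd300lf, an inhibitory CD300 receptor that binds phosphatidylserine and ceramide (chromosome 11, 115116214 to 115133992), stood at 51.2, 2.63 and 6.55 FPKM with CD4 depletion. It stood at 25.1 and 14.7 FPKM in the libraries labelled anti-CTLA4 and at 1.12 and 10.2 FPKM in IgG. Thus the groups overlapped for CD4 depletion against either other group, and did not for the labelled anti-CTLA4 group against IgG. Its log2 fold change there was 2.06 (SE 1.23, interval -0.83 to 4.94, limma adjusted p = 0.214), larger than that of Cd300a but with a far wider interval.

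Pirb, the paired immunoglobulin-like receptor B (chromosome 7, 3712505 to 3720382), stood at 30.7, 2.48 and 5.25 FPKM with CD4 depletion, 9.18 and 6.31 FPKM in the libraries labelled anti-CTLA4 and 1.65 and 4.20 FPKM in IgG. Pilra, the paired immunoglobulin-like type 2 receptor alpha (chromosome 5, 137821952 to 137836278), stood at 28.2, 4.65 and 7.69 FPKM, at 10.2 and 6.39 FPKM and at 2.39 and 4.54 FPKM in the same groups. For both genes every library labelled anti-CTLA4 lay above every IgG library, and CD4 depletion libraries lay on both sides of the labelled anti-CTLA4 ones. Labelled anti-CTLA4 against IgG gave 1.21 for Pirb (SE 0.92, limma adjusted p = 0.318) and 1.07 for Pilra (SE 0.70, limma adjusted p = 0.250). CD4 depletion against IgG gave 1.25 for Pirb (SE 0.84) and 1.38 for Pilra (SE 0.64, interval -0.12 to 2.88, limma adjusted p = 0.710). Pilra shares 468 exonic bases, 15.1% of its annotated exons, with Zcwpw1 on the other strand, and reads were counted on both strands. Zcwpw1 reads there cannot be told apart from Pilra.

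The activating members were the lowest. Cd300ld (chromosome 11, 114982446 to 114989886) stood at 12.3, 0.544 and 1.41 FPKM with CD4 depletion, 1.40 and 0.584 FPKM in the libraries labelled anti-CTLA4 and 0.0340 and 1.39 FPKM in IgG. Cd300lb (chromosome 11, 114922779 to 114934386) stood at 7.41, 0.809 and 1.10 FPKM, at 0.952 and 0.138 FPKM and at 0.196 and 1.74 FPKM in the same groups. Apart from replicate 1 of CD4 depletion, all 3 groups overlapped for both genes. The lowest Cd300ld value rests on about 7 reads and the lowest Cd300lb value on about 33, whereas Lair1 had 15505 to 43042 reads a library. At that depth the low values are imprecise, and the log2 fold changes of these genes ranged from -0.28 to 1.23 with SEs of 0.69 to 0.94.

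The calls of the receptors stand beside those over all genes. In CD4 depletion against the labelled anti-CTLA4 group, 2 of the 7 genes were lower (limma adjusted p, threshold 0.05), where 6.59% of 13028 tested genes were lower, 22.8% higher and 29.4% changed either way, a share near that of the receptors. Groups did not overlap there for the same 2 receptors, against 60.5% of tested genes. In the labelled anti-CTLA4 group against IgG, 2 of 7 were higher, where 9.29% of tested genes were higher and 38.0% changed. Groups did not overlap there for 5 of 7 receptors, against 76.9% of tested genes. In CD4 depletion against IgG, limma called 0 of 7 receptors, with 0 also at an unadjusted p under 0.05, and 0% of tested genes (851 at an unadjusted p under 0.05). Groups did not overlap there for 2 of 7, Pilra and Lair1, against 27.2% of tested genes. The median log2 change of the 7 was 0.04, 1.13 and 1.21 in these comparisons, against 0.27, -0.31 and -0.04 over all tested genes. Without replicate 1 of CD4 depletion, the first and last of these medians were -0.89 and 0.11, against 0.30 and 0.005 over all tested genes. The first 2 comparisons share the labelled anti-CTLA4 libraries, the last shares libraries with each of them, and so the 3 are not independent.

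**Figure D2:**
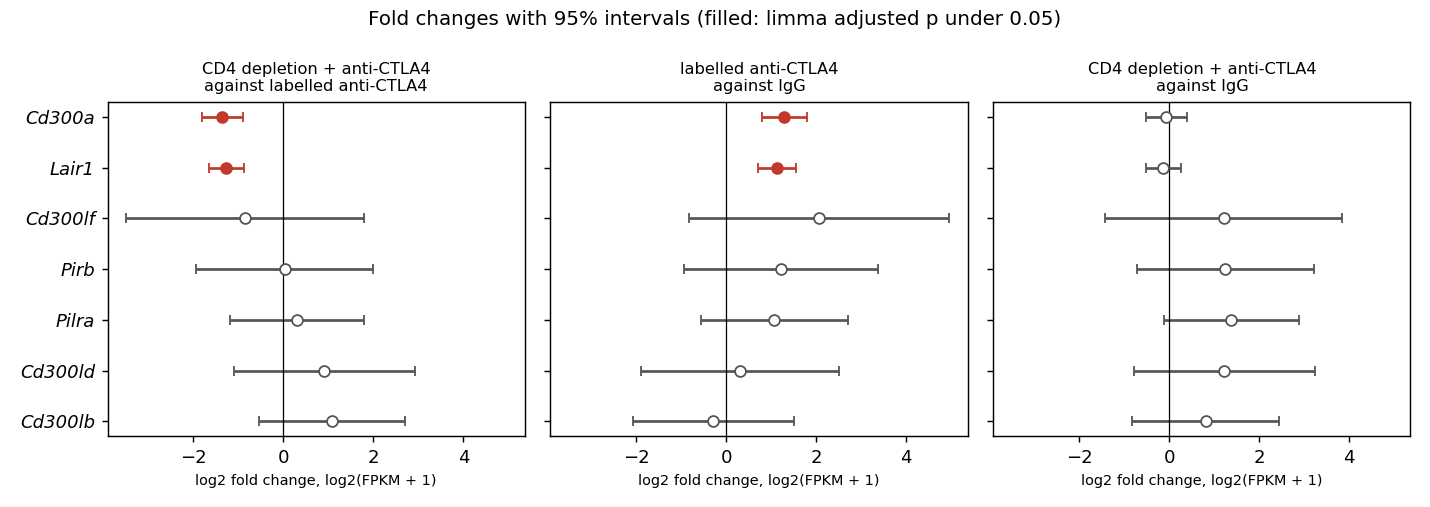
Log2 fold changes of the 7 receptor genes with 95% intervals in the 3 comparisons, filled where the limma adjusted p was under 0.05. Cd300a and Lair1 have narrow intervals away from 0 in the comparisons with the libraries labelled anti-CTLA4, and the other 5 genes have wide intervals that include 0 in each panel.

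The calls for Cd300a and Lair1 rested on few libraries. Without replicate 2 of the labelled anti-CTLA4 group, CD4 depletion against it gave -1.32 and -1.07 for Cd300a and Lair1 (limma adjusted p = 0.099 and 0.095), and 0 of all tested genes passed. In the labelled anti-CTLA4 group against IgG, the pair lost its calls when either IgG library or that replicate was left out, with limma adjusted p between 0.051 and 0.071 and log2 fold changes of 0.94 to 1.41. Over all tested genes 0 passed there without that replicate or IgG replicate 1, and 675 without IgG replicate 2, so the gene lists described below, other than the receptors, lost their calls likewise, apart from 4 inhibitory receptor genes, 6 signalling genes and Cd300c2 without IgG replicate 2.

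Without replicate 1 of CD4 depletion, the wide intervals narrowed. Cd300lf then averaged 4.59 FPKM with CD4 depletion, against 19.9 FPKM in the labelled anti-CTLA4 group, or -1.95 in log2 (SE 0.74, limma adjusted p = 0.070), where it was -0.85 with that library. Pirb changed sign, to -0.89 (SE 0.40, limma adjusted p = 0.113). In the labelled anti-CTLA4 group against IgG, which does not use that library except for the shared spread, Pirb and Pilra then passed (limma adjusted p = 0.041 and 0.035) beside Cd300a and Lair1. Those 4 also passed when the fit held only these 2 groups. Calls over all 13028 tested genes rose too, from 4957 in the main fit to 6069 without that library and 5316 with only these 2 groups. Cd300lf had an adjusted p of 0.055 by limma without that library. CD4 depletion against IgG called none of the 7 genes without it, with log2 fold changes of -0.05 for Lair1 to 0.69 for Pilra.

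Libraries differed in markers of other cells. Cd300lf, Pirb, Pilra, Cd300ld and Cd300lb were highest where several of these lists were, in replicate 1 of CD4 depletion. Cd300a and Lair1 were at their lowest there, at 7.28 and 44.2 FPKM. The 18 genes of the monocyte and macrophage list summed to 3039, 252 and 836 FPKM with CD4 depletion, 1123 and 445 FPKM in the libraries labelled anti-CTLA4 and 194 and 486 FPKM in IgG. In replicate 1 of CD4 depletion 18 of 18 were at 1 FPKM or more, against 9 to 14 in the others. The 14 neutrophil genes summed to 632, 57.0 and 90.1 FPKM, to 101 and 184 FPKM and to 41.9 and 37.9 FPKM in the same groups, with 13 of 14 at 1 FPKM or more in replicate 1 of CD4 depletion and 4 to 8 elsewhere. The 10 genes of border-associated macrophages summed to 220, 13.4 and 38.1 FPKM, to 57.2 and 21.1 FPKM and to 6.96 and 21.3 FPKM. That library was the highest and IgG replicate 1 the lowest of the 7 for the monocyte list, Cd300lf, Cd300ld, Pirb and Pilra.

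Among defining markers, Ccr2, the chemokine receptor of inflammatory monocytes, was at 43.1 FPKM in replicate 1 of CD4 depletion and at 1.02 to 2.24 FPKM in the other 6 libraries. Retnlg, a neutrophil gene, was at 33.3 FPKM against 0.118 to 1.54 FPKM, while Ly6g, the defining neutrophil surface marker, was near 0 throughout, at 0.101, 0 and 0.244 FPKM with CD4 depletion, 0.07 and 0.266 FPKM in the libraries labelled anti-CTLA4 and 0 and 0.013 FPKM in IgG. T and NK cell genes summed to 4.81 to 7.61 FPKM with CD4 depletion, 7.65 and 8.61 FPKM in the labelled anti-CTLA4 group and 6.30 and 5.35 FPKM in IgG. The part of these cells in the level of Cd300lf, Pirb, Pilra, Cd300ld and Cd300lb was not tested. In bulk libraries, fewer cells of a type and less RNA per cell cannot be told apart.

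For Cd300a and Lair1 the lists that moved alongside were others. The 26 homeostatic microglia genes summed to 14740, 20959 and 21244 FPKM with CD4 depletion, 33580 and 43186 FPKM in the libraries labelled anti-CTLA4 and 19145 and 17885 FPKM in IgG. The 20 genes of tumour cells and oligodendrocyte precursors summed to 224, 715 and 504 FPKM, to 117 and 45.8 FPKM and to 817 and 1168 FPKM in the same groups. Both libraries labelled anti-CTLA4 were thus the highest for microglia genes and the lowest for tumour genes. The 11 dendritic cell genes summed to 35.9, 23.4 and 25.6 FPKM with CD4 depletion, 60.1 and 56.1 FPKM in the libraries labelled anti-CTLA4 and 18.2 and 24.3 FPKM in IgG, with 4 to 8 of 11 at 1 FPKM or more. Red cell genes summed to 166, 576 and 216 FPKM with CD4 depletion, 980 and 938 FPKM in the libraries labelled anti-CTLA4 and 328 and 47.4 FPKM in IgG. B cell genes summed to 9.82, 8.37 and 7.38 FPKM, to 21.7 and 22.9 FPKM and to 7.01 and 8.48 FPKM, with at most 2 of 5 at 1 FPKM or more. The part of these lists in the levels of Cd300a and Lair1 was not tested. All 26 microglia genes were at 1 FPKM or more in every library, among them Tmem119 at 243 to 1001 FPKM.

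**Figure D3:**
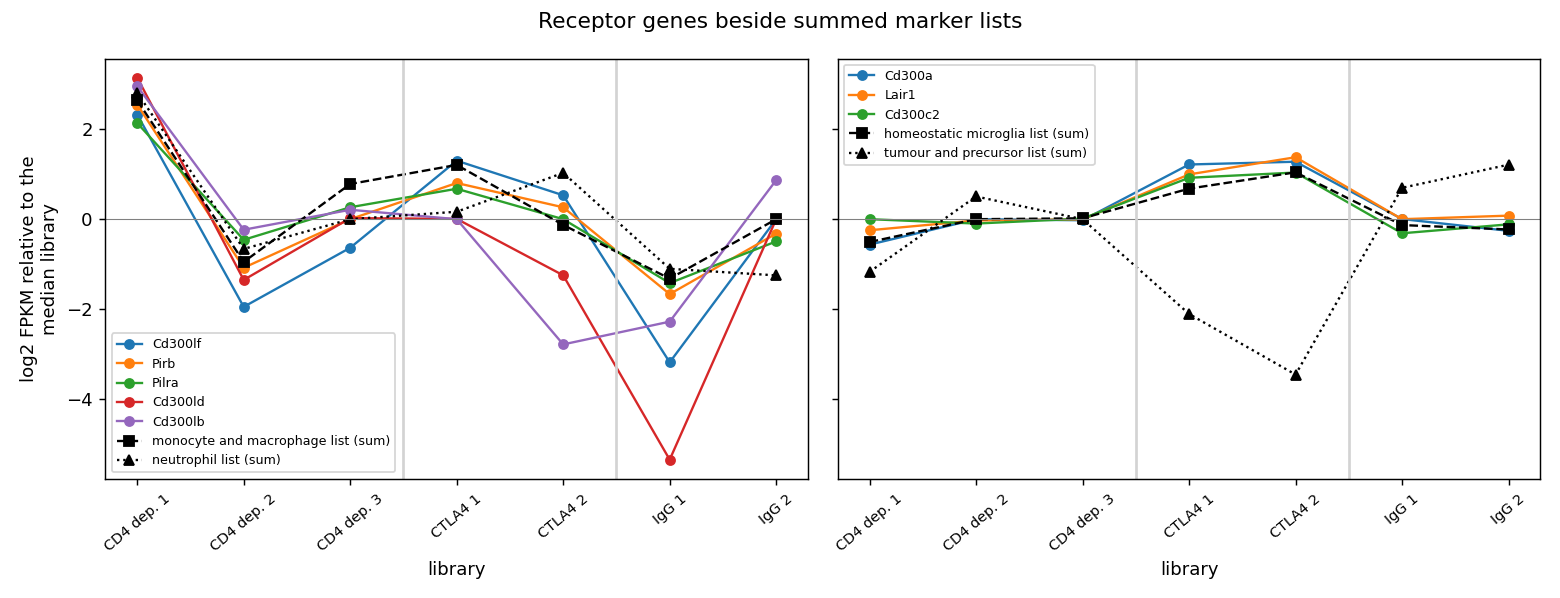
Log2 FPKM of receptor genes and of summed marker lists relative to the median library, for the 7 libraries. At left, 5 receptor genes peak with the monocyte and neutrophil sums in replicate 1 of CD4 depletion. At right, Cd300a, Lair1 and Cd300c2 are highest with the homeostatic microglia sum in both libraries labelled anti-CTLA4, where the tumour sum is lowest.

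The scale of the values mattered for that pair. When each library was scaled to the geometric mean of 14 microglia and macrophage genes, CD4 depletion against the labelled anti-CTLA4 group gave -0.45 for Cd300a (SE 0.31, limma adjusted p = 0.203) and -0.32 for Lair1 (SE 0.36, limma adjusted p = 0.439). The labelled anti-CTLA4 group against IgG gave 0.37 (SE 0.34) and 0.16 (SE 0.39), with limma adjusted p = 0.357 and 0.735. That scaling moved the median of all genes to 0.98 and -1.05 in these comparisons, and Cd300a and Lair1 lay below that median in the first and above it in the second. With median-of-ratios scaling, which put the median of all genes at 0.01 and -0.01, Cd300a had -1.65 and 1.64 and Lair1 -1.58 and 1.502, and both passed. Calls over all genes then split into 1455 higher and 1648 lower in the first comparison and 2132 higher and 2051 lower in the second, where the deposited scale gave 2969 and 858, and 1210 and 3747.

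**Figure D4:**
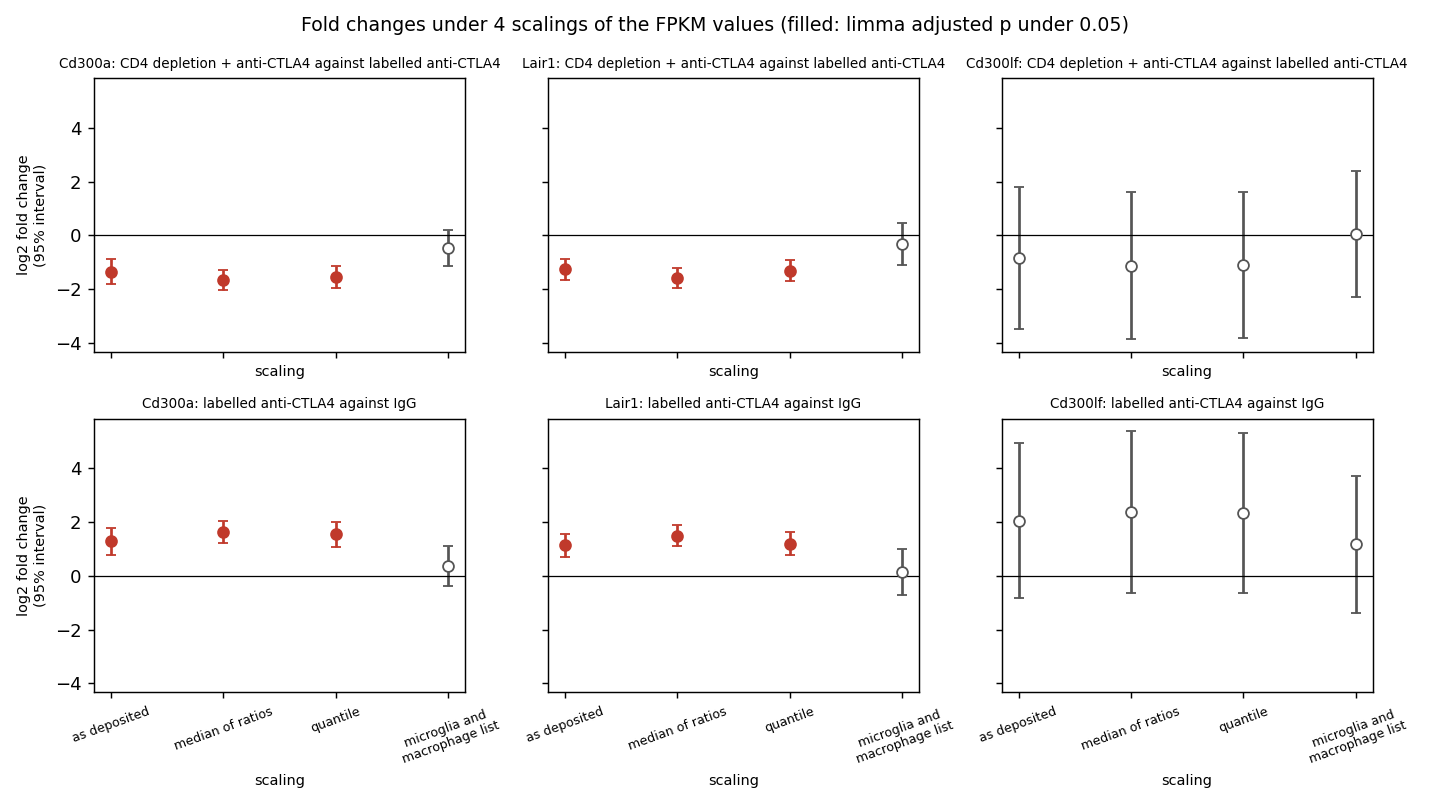
Log2 fold changes with 95% intervals of Cd300a, Lair1 and Cd300lf under 4 scalings of the FPKM values, filled where the limma adjusted p was under 0.05. Cd300a and Lair1 pass on the deposited, median-of-ratios and quantile scales and lie nearer to 0 when libraries are scaled to microglia and macrophage genes.

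The CD300 family as a whole was dominated by Cd300c2, a short-tailed activating receptor that signals through DAP12 and lies in the same cluster on chromosome 11 (114996769 to 115001880). It stood at 72.6, 67.8 and 73.2 FPKM with CD4 depletion, 137 and 149 FPKM in the libraries labelled anti-CTLA4 and 58.4 and 67.0 FPKM in IgG. Like Cd300a, it was lower with CD4 depletion than in the labelled anti-CTLA4 group (-0.998, SE 0.14, limma adjusted p = 0.012) and higher there than in IgG (1.18, SE 0.16, limma adjusted p = 0.0094), and with list scaling it passed in neither. The other 6 family rows, among them Cd300c, Cd300e and Cd300lg, were below 1 FPKM in every library, and Cd300ld4 and Cd300ld5 were listed at 0 throughout.

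Summed over 11 family rows, CD300 RNA came to 152, 83.3 and 93.5 FPKM with CD4 depletion, 191 FPKM in each library labelled anti-CTLA4, and 70.5 and 89.6 FPKM in IgG. Cd300c2 made up 47.9% of it in replicate 1 of CD4 depletion and 72.1% to 82.8% in the other libraries. Cd300lf made up 33.7% in that replicate, 3.16% and 7.01% in the others of its group, 13.2% and 7.72% in the libraries labelled anti-CTLA4 and 1.59% and 11.4% in IgG. Cd300a made up 4.80%, 12.9% and 11.3%, 13.1% and 13.7%, and 15.3% and 10.05% in those groups. In the libraries labelled anti-CTLA4 the summed level was the highest of the 7, and the shares of these 3 genes lay within the range of the other libraries. For Cd300c2 and Cd300lf that range rested on replicate 1 of CD4 depletion. Apart from it, replicate 1 labelled anti-CTLA4 had the lowest Cd300c2 share, 72.1%, and the highest Cd300lf share, 13.2%.

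**Figure D5:**
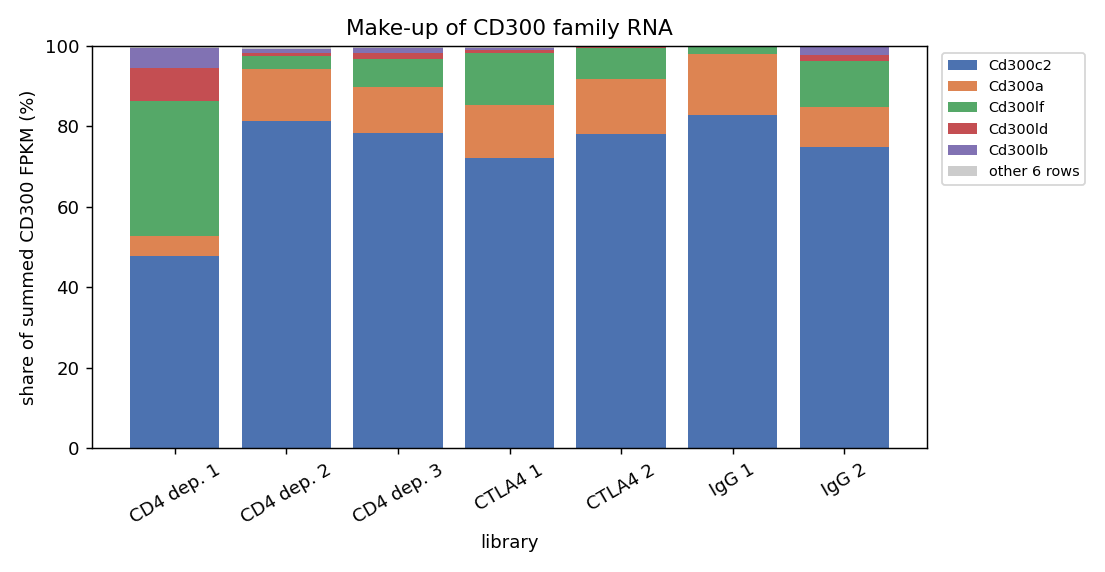
Share of summed CD300 FPKM (percent) held by each gene in the 7 libraries, as stacked bars. Cd300c2 holds 47.9% in replicate 1 of CD4 depletion, where Cd300lf holds 33.7%, and at least 72.1% in each other library.

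Pilrb and Pira rows, activating partners of the paired receptors, were below 1 FPKM outside replicate 1 of CD4 depletion. Pilrb1 and Pilrb2, the DAP12-coupled partners of PILRA, summed to 9.78, 0.269 and 0.422 FPKM with CD4 depletion, 0.805 and 0.680 FPKM in the libraries labelled anti-CTLA4 and 0.115 and 0.357 FPKM in IgG. Pilra was 2.88 times their sum in replicate 1 of CD4 depletion and 9.40 to 20.7 times it in the other libraries. The 7 Pira rows, activating partners of PIRB, had at most 1.61 FPKM in replicate 1 of CD4 depletion and at most 0.488 FPKM elsewhere. Pira rows overlap each other, and Pira genes and Pirb are near-identical in parts, so reads may be split or shared among them, although Pirb shares no annotated exon with another gene. Lilrb4a, an inhibitory receptor, stood at 97.8, 2.91 and 12.1 FPKM with CD4 depletion, 41.8 and 16.4 FPKM in the libraries labelled anti-CTLA4 and 1.42 and 8.31 FPKM in IgG. Its partner Lilr4b, also a close copy, stood at 42.2, 0.706 and 2.38 FPKM, at 4.44 and 2.16 FPKM and at 0.161 and 1.79 FPKM. The Pilrb, Pira and Lilr genes were named after their values had been seen.

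Of 19 listed activating and paired partners with a row, only 6 passed the filter on low values. The counts of this list and those that follow stand beside 22.8% of tested genes higher and 6.59% lower in the first comparison and 9.29% higher and 28.8% lower in the second. Trem2 and Siglech, DAP12-coupled receptors of microglia, were the 2 lower with CD4 depletion than in the labelled anti-CTLA4 group (-1.20 and -1.31, limma adjusted p = 0.015 and 0.031). Without CD4 depletion replicate 3, or either IgG library, or anti-CTLA4 replicate 1, 1 of the 6 passed in that comparison. The same 2 were higher in that group than in IgG (1.40 and 1.15, limma adjusted p = 0.011 and 0.047), and with libraries scaled to the microglia and macrophage list none of the 6 passed in either comparison. With quantile normalization 0 and 1 genes of this list passed in the 2 comparisons, and without a filter 1 and 1. Trem2 and Siglech also belong to the homeostatic microglia list. Clec7a, the beta-glucan receptor, and Clec5a did not pass, with 1.52 (SE 0.84) and 0.90 (SE 0.38) against IgG. Trem2 stood at 189 to 278 FPKM with CD4 depletion, 552 and 572 FPKM in the labelled anti-CTLA4 group and 209 and 217 FPKM in IgG.

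Of 16 other tested genes listed as inhibitory ITIM receptors, 5 were lower and 0 higher with CD4 depletion than in the labelled anti-CTLA4 group. The median of the 16 was -0.71. In the labelled anti-CTLA4 group against IgG, 7 were higher and 0 lower, with a median of 1.19. With libraries scaled to the microglia and macrophage list 1 and 0 passed, and without replicate 1 of CD4 depletion 9 and 12. Calls over all tested genes also rose without that replicate, from 3827 and 4957 to 5291 and 6069. Without replicate 2 or 3 of CD4 depletion 3 and 2 passed in the first comparison, and without a filter 2 passed in the first comparison and 3 in the second. Sirpa, the receptor for the CD47 signal that restrains phagocytosis, stood at 149 to 254 FPKM with CD4 depletion, 394 and 517 FPKM in the labelled anti-CTLA4 group and 222 and 185 FPKM in IgG. It had -1.16 and 1.15 in these comparisons (SE 0.27 and 0.29, limma adjusted p = 0.023 each). Cd33, a sialic acid-binding receptor, had -0.997 and 1.40 (limma adjusted p = 0.014 and 0.0094), and Siglecg -1.62 and 1.48 (limma adjusted p = 0.011 and 0.0095). Whether mouse CD33 carries an ITIM was not checked. Fcgr2b, the inhibitory Fc receptor, had -0.91 and 1.25 and did not pass (limma adjusted p = 0.177 and 0.097), nor did Cd72 with -0.67 and 1.61.

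The adaptors that activating receptors use were abundant. Tyrobp, which encodes DAP12, stood at 751, 444 and 556 FPKM with CD4 depletion, 1219 and 889 FPKM in the labelled anti-CTLA4 group and 356 and 415 FPKM in IgG. Tyrobp, Fcer1g and Hcst were all higher in the labelled anti-CTLA4 group than in IgG, by 1.43, 1.33 and 1.53 (limma adjusted p = 0.016, 0.035 and 0.028). None of the 3 passed in CD4 depletion against that group, with -0.87, -0.93 and -0.43. Without replicate 1 of CD4 depletion 2 of the 3 passed there (beside 5291 of all tested genes), and 1 with median-of-ratios scaling or with no trend. With quantile normalization 1 of the 3 passed against IgG, and with list scaling, without a filter, or without any 1 library labelled anti-CTLA4 or IgG, 0 did.

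Of 20 tested signalling genes behind ITIM and ITAM receptors, 12 were lower and 1 higher with CD4 depletion than in the labelled anti-CTLA4 group, with a median of -0.59. In that group against IgG, 12 were higher and 1 lower, with a median of 0.94. With list scaling 2 and 4 passed in either direction, and in the first comparison 3 without CD4 depletion replicate 2, 2 without replicate 3 and 0 without anti-CTLA4 replicate 2. Ptpn6, which encodes SHP-1, stood at 109, 72.3 and 89.1 FPKM with CD4 depletion, 161 and 170 FPKM in the labelled anti-CTLA4 group and 53.9 and 67.2 FPKM in IgG. It had -0.89 and 1.44 (SE 0.20 and 0.22, limma adjusted p = 0.022 and 0.0095). Ptpn11, which encodes SHP-2, was the exception in each: 0.60 and -0.89 (limma adjusted p = 0.046 and 0.016), and it was named after its values had been seen. Inpp5d, the lipid phosphatase SHIP1, had -0.85 and 1.04, Lyn, a kinase that phosphorylates ITIMs, -0.81 and 1.07, Pik3ap1 -1.18 and 1.33 and Btk -1.02 and 1.36, and all of these passed. No signalling gene passed by limma in CD4 depletion against IgG, as none of all tested genes did.

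Of 10 tested genes for ligands of LAIR1, 4 were lower with CD4 depletion than in the labelled anti-CTLA4 group, and 6 were higher in that group than in IgG. With list scaling 2 and 2 passed, with quantile normalization 1 and 4, without a filter 1 and 1, and without anti-CTLA4 replicate 1 0 and 3. In the first comparison 1 passed without CD4 depletion replicate 2 or 3 or either IgG library, and 0 without anti-CTLA4 replicate 2. The C1q chain genes C1qa, C1qb and C1qc are made by microglia themselves and also belong to the homeostatic microglia list. They had -1.09, -1.08 and -1.03 in the first comparison (limma adjusted p = 0.026, 0.046 and 0.034). Against IgG they had 1.26, 1.34 and 1.27 (limma adjusted p = 0.018, 0.027 and 0.020). C1qb stood at 2164, 1659 and 2253 FPKM with CD4 depletion, 4421 and 4101 FPKM in the labelled anti-CTLA4 group and 1503 and 1893 FPKM in IgG. Col1a2, a collagen chain of fibroblasts, stood at 6.03, 5.65 and 1.41 FPKM, at 42.1 and 21.5 FPKM and at 2.16 and 1.497 FPKM in the same groups. Its log2 fold changes were -2.69 and 3.47 (limma adjusted p = 0.015 and 0.0097), while Col3a1 passed only against IgG (3.36, SE 1.05, limma adjusted p = 0.041). The endothelial and mural list summed to 101, 77.4 and 60.8 FPKM, to 321 and 182 FPKM and to 29.9 and 35.5 FPKM, and its part in the collagen values was not tested.

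Of 8 tested genes for ligands of PIRB and PILRA, 4 were lower and 3 higher with CD4 depletion than in the labelled anti-CTLA4 group. The class I genes B2m, H2-D1 and H2-K1 were lower (-1.45, -1.55 and -1.61, limma adjusted p = 0.021, 0.015 and 0.016). In the labelled anti-CTLA4 group against IgG these 3 did not pass (0.75, 0.67 and 0.55), 1 of the 8 was higher and 2 were lower, shares near the 9.29% and 28.8% of all tested genes. The 7 calls of the first comparison came to 1 without a filter, 4 without CD4 depletion replicate 2, 3 without anti-CTLA4 replicate 1, and 0 without CD4 depletion replicate 3 or anti-CTLA4 replicate 2. With list scaling 4 and 3 of the 8 passed in either direction, and with quantile normalization 3 and 3. Omg, a myelin ligand of PIRB, had 1.47 and -2.66 (limma adjusted p = 0.031 and 0.0097), and Npdc1, a neural ligand of PILRA, 1.52 and -2.17 (limma adjusted p = 0.026 and 0.011). The sums of the tumour list are given above, and its part in these values was not tested. Pirb itself did not pass in either comparison.

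The genes most like each receptor over the 7 libraries, among 7589 with a mean of at least 5 FPKM, fell into 2 sets. For Lair1 they were Adora3, Tmigd3 and Fez2 (r = 0.998, 0.995 and 0.993), and for Cd300a Khk, Fbxw4 and Scamp2 (r = 0.992, 0.991 and 0.991). Adora3, an adenosine receptor gene, stood at 8.69, 10.7 and 11.1 FPKM with CD4 depletion, 26.4 and 34.2 FPKM in the labelled anti-CTLA4 group and 10.99 and 10.8 FPKM in IgG. For Pirb they were Fxyd5, Ms4a6c and Slc16a3 (r = 0.994, 0.992 and 0.988), for Pilra Mmp14, Capg and Tgfbi (r = 0.995, 0.987 and 0.986), and for Cd300lf Ifi207, Lgals3 and Osm (r = 0.990, 0.988 and 0.986). For Cd300ld they were Adgre5, Cfp and Jdp2 (r = 0.993, 0.990 and 0.979) and for Cd300lb Ccdc115, Jdp2 and Capza1 (r = 0.988, 0.973 and 0.971). Ms4a6c belongs to the monocyte list, and it stood at 108, 9.29 and 16.4 FPKM with CD4 depletion, 41.0 and 19.9 FPKM in the labelled anti-CTLA4 group and 5.84 and 14.5 FPKM in IgG. Among the receptors, Cd300a and Lair1 correlated at r = 0.969 and Pirb and Pilra at 0.980, whereas Cd300a and Pirb had -0.06. With 7 libraries in 3 groups, and 1 library far from the others, these are descriptions without a test.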

How the data were processed

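RNA of sorted microglia was sequenced in 7 libraries. Per the file headers, the authors' deposited FPKM values came from HOMER's counting over exons on build mm10, with 1 entry kept per gene and reads on both strands counted. The submitters' processing notes also name STAR and DESeq2, and versions are not given in the sources used here. The deposited table also gives transcript length. Over transcripts of 200 to 800 nucleotides, 100% of 263 to 296 low values per library (up to 20 reads) came to whole reads within 0.1, which implies totals of 84100000 to 107600000 reads. Implied reads of a gene are FPKM times length times that total. Such depth covers counting error only, and no count test was run on FPKM.

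limma 3.58.1 (R 4.3.3) was run on log2(FPKM + 1). Genes needed 1 FPKM or more in 2 or more libraries, which left 13028, and all 7 receptors passed this filter. The 3 groups shared 1 spread (eBayes, trend on), and tests were two-sided with Benjamini-Hochberg adjustment over all tested genes and a threshold of 0.05. The fit was also run on simulated data, with independent values per gene and library and changes planted in the labelled anti-CTLA4 group. That simulation held no outlier library and no shift of whole libraries, so it cannot show how these affect the calls. The receptors, gene lists and tests were chosen with earlier results of these data known. Named genes are the 7 receptors and, from each list about the receptors, up to 4 with the highest mean FPKM and up to 2 past the threshold with the smallest p per comparison; likeness is Pearson's r of log2(FPKM + 1). 1 gene that this rule names is not reported here. Exon overlap was read from GENCODE M21 on GRCm38, the assembly that mm10 names, and promoter windows from RefSeq, where 7 of 7 receptors matched. Alternatives were another pseudocount, no filter, 3 other scalings, no trend, the replicate number as a block, fits of only the groups compared, and leaving out each library.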

Additional observations from a re-analysis of the deposited data

How the results depend on the processing

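Leaving out 1 library gave 0 to 2 receptors past the threshold in CD4 depletion against the labelled anti-CTLA4 group, 0 to 4 in that group against IgG, and 0 to 0 in CD4 depletion against IgG; over all genes the counts were 0 to 5291, 0 to 6069 and 0 to 0. A lone library in a group was assumed to vary like the others, and such fits have fewer samples. Scaling to the microglia and macrophage list gave 0 receptors in each of the first 2 comparisons, with 8306 and 7830 of all genes (0 receptors also at an unadjusted p under 0.05). With only the 2 groups compared in the fit, 4 receptors passed in the labelled anti-CTLA4 group against IgG, beside 5316 of 13028 tested genes, against 4957 in the main fit. Without a filter, 2477 genes passed in CD4 depletion against the labelled anti-CTLA4 group, of 19667 tested, against 3827 in the main fit.

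With the replicate block, 0 receptors and 0 genes passed by limma in CD4 depletion against the labelled anti-CTLA4 group (2 receptors and 4304 genes at an unadjusted p under 0.05), and 2 receptors and 2665 genes, against 4957 without it, in that group against IgG. Only CD4 depletion has a replicate 3, so the block fits that library by itself. Fold changes in the first comparison equalled those without that library, with -1.43 for Cd300a in both fits. Deviations of same-numbered libraries correlated at -0.20 to 0.12. In groups of 2 libraries the deviations mirror each other, so these values cannot decide whether the numbers pair the libraries. With crossed numbers, an alternative chosen after seeing the data and fitted to the labelled anti-CTLA4 and IgG groups alone, 5 receptors and 5196 genes passed. The block changed no other receptor count. Of the counts of other gene lists in the 2 comparisons with calls, 122 stayed within 1.5 times, 82 were smaller and 6 larger.

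Fold changes of receptors that had not passed changed sign in these cases. In CD4 depletion against the labelled anti-CTLA4 group, Pirb had -0.035 with a pseudocount of 0.1, -0.23 with median-of-ratios scaling and -0.24 with quantile normalization, and Cd300lf had 0.050 under list scaling. Leaving out 1 library there gave -0.89 to 0.71 for Pirb, -0.38 to 0.81 for Pilra and -0.014 to 1.54 for Cd300ld, with the lowest value of each without CD4 depletion replicate 1, and Pirb had -0.20 without anti-CTLA4 replicate 2. In the labelled anti-CTLA4 group against IgG, Cd300lb had 0.0012 with quantile normalization and Cd300ld -0.073 under list scaling. Leaving out 1 library there gave -0.88 to 0.32 for Cd300lb, with 0.11 without anti-CTLA4 replicate 2, and -0.29 to 0.91 for Cd300ld. In CD4 depletion against IgG, leaving out 1 library gave -0.18 to 0.11 for Cd300a, with 0.06 without IgG replicate 1. Beyond what fewer samples, fewer genes or the scaling's own construction set, the cause was not tested.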
